A study of Mus musculus with 6 samples.

Results

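Cornification proteases and inhibitors were followed as a group of 10 genes, chosen by symbol from the 21959 genes of the deposited skin table. The group held the membrane-anchored serine protease gene St14, the kallikrein-related peptidase genes Klk5, Klk7, Klk8, Klk10 and Klk11, the protease genes Casp14 and Asprv1, and the protease inhibitor genes Spink5 and Cst6. All 10 were found in the table under 1 entry each, and none overlapped another gene of the table. Full-thickness dorsal skin was taken from male C57BL/6 mice that had been shaved at 7 weeks of age. The study gives their stage as telogen, the resting phase of the hair cycle. Vehicle (dipropylene glycol in water) was applied to the shaved skin of 1 group every day for 7 days, and 3% rebamipide, a quinolinone drug used to protect the gastric mucosa and the ocular surface, to the other. Each group had 3 poly-A selected RNA-seq libraries, called vehicle 1 to 3 and rebamipide 1 to 3 here, with no untreated skin among them. The libraries hold all layers of the skin, so fewer cells of a type and less RNA per cell cannot be told apart.

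Cornification is the last step of keratinocyte differentiation, in which the cells of the granular layer die, are crosslinked into flat corneocytes and are later shed. Shedding depends on a cascade of secreted serine proteases. Matriptase and the kallikreins activate one another and then cut the corneodesmosomes, the junctions that hold corneocytes together, while inhibitors such as LEKTI restrain them. Other proteases of the same layer process filaggrin, the protein that bundles keratins and is later broken down to moisturizing amino acids. Genes of this network underlie inherited scaling disorders, among them Netherton syndrome (loss of the LEKTI gene) in humans.

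The libraries held 38676018 to 39915276 counts in the vehicle group and 32709801 to 34706852 in the rebamipide group, and mitochondrial genes took 2.59 to 5.36% and 13.28 to 21.96% of them. Rebamipide 3 stood apart from the other 5 libraries in keratinocyte genes. The summed level of the 6 basal keratinocyte markers was 2178 to 3693 normalized CPM (counts scaled to the TMM-adjusted library size) in vehicle. It was 1086 in rebamipide 1, 692 in rebamipide 2 and 144 in rebamipide 3, where Krt14 was at 0. Itga6 alone made up 129 CPM of that last sum. Its levels overlapped between the groups, and rebamipide 3 was the lowest library for the 5 other basal markers. For the 7 suprabasal markers the sums were 1677 to 7627 in vehicle, 2013 and 1313 in rebamipide 1 and 2, and 6.07 in rebamipide 3, where Calml3 was at 0. The sum of the 6 brown adipocyte markers ran the other way, from 171 to 532 in vehicle to 4881, 12680 and 10410 in rebamipide. In 5 of the 6 all rebamipide libraries were above all vehicle libraries, Elovl6 being the exception, and Ucp1 was at 0 in all 3 vehicle libraries. Rebamipide 3 was also the lowest library for 4 of 6 sebaceous gland markers (not for Mogat2 and Pm20d1), 5 of 5 skeletal muscle markers and 5 of 5 leukocyte markers, with sums of 112, 238 and 38.1 CPM beside lowest vehicle sums of 467, 4595 and 73.6. By epidermal markers the label of whole skin was thus met in 5 libraries and hardly met in rebamipide 3. Rebamipide 1 and 2 differed from vehicle too, with lower basal sums, higher brown adipocyte sums and higher mitochondrial shares. The fits without rebamipide 3 do not remove these differences. The members' fitted changes are given with and without that library, and the part of these shifts in the levels below was not tested.

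All 10 genes were fitted lower after rebamipide, and none of these differences passed the test (edgeR quasi-likelihood test, Benjamini-Hochberg adjusted p-value under 0.05). The fitted log2 fold changes ran from -3.43 for St14 to -1.65 for Klk8, with a median of -2.16 against -0.17 over all genes tested, and 56.9% of all genes were fitted lower. Adjusted p-values of the 10 genes lay between 0.11 and 0.373. Over all 14875 genes, 6.51% were called lower and 14.1% higher, so a count of 0 of 10 in either direction was below both shares. At an unadjusted p-value under 0.05, 2 of the 10 were lower, Klk10 and St14, beside 18.8% of all genes. The same pair passed in edgeR at an unadjusted p-value under 0.05 with an absolute log2 fold change over 1, beside 14.5% of all genes. These thresholds are those that the study's methods set for DESeq2, and in DESeq2 Klk8 passed them too, which made 3 of the 10 beside 18.2% of all genes. DESeq2 called Klk10 and St14 lower at an adjusted p-value under 0.05, where it called 17.0% of all genes lower, and limma-voom called none. With limma on the deposited FPKM, 5 of the 10 were called lower on log2(FPKM + 1) and 2 on log2(FPKM + 0.1), settings that called 32.3% and 32.1% of all genes lower. Scaled by total counts alone, the median of the 10 genes was -2.68 against -0.78 over all genes, and the calls over all genes turned from 968 lower and 2093 higher to 3752 lower and 1258 higher, with no member called.

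**Figure D1:**
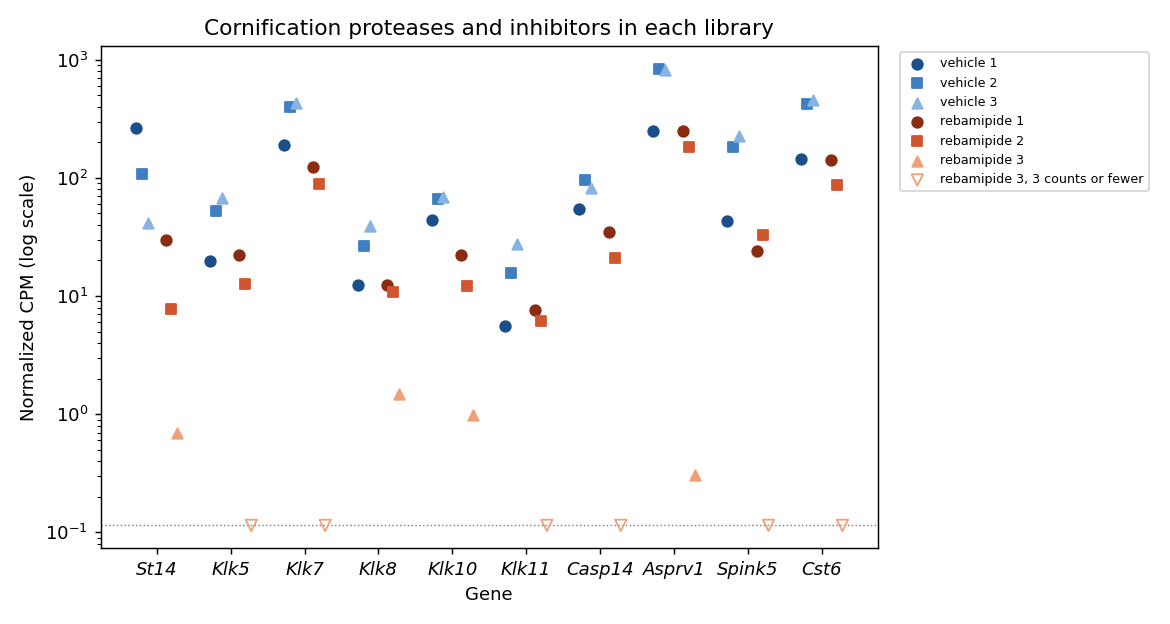
Each point is the normalized CPM (log scale) of a gene in a library, with vehicle in blues and rebamipide in reds, and open triangles mark rebamipide 3 values of 3 counts or fewer, drawn at the dotted line of 3 counts (0.115 CPM). Rebamipide 3 is the lowest library for all 10 genes, and rebamipide 1 and 2 lie closer to the vehicle points.

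The rebamipide libraries differed widely among themselves. Rebamipide 1 kept 15.9 to 48.0% of the vehicle mean of each gene and rebamipide 2 kept 5.64 to 42.0%, whereas rebamipide 3 held 93 counts over all 10 genes together. In that library 5 genes were at 0 counts (Klk5, Klk7, Klk11, Spink5 and Casp14) and a sixth, Cst6, had 2 counts, which is under the floor of 3 counts. The rest were Klk8 with 39 counts, Klk10 with 26, St14 with 18 and Asprv1 with 8. The 3 rebamipide values were all below the 3 vehicle values for 6 of the 10 genes (Klk7, Klk10, Spink5, St14, Casp14 and Cst6), against 24.0% of all genes tested. In the other 4 (Klk5, Klk8, Klk11 and Asprv1) rebamipide 1 was above vehicle 1, so the groups overlapped. The vehicle group was itself uneven: vehicle 1 was the lowest vehicle library for 9 of the 10 genes, and over all genes it was lowest for 43.0% and highest for 45.7%.

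**Figure D2:**
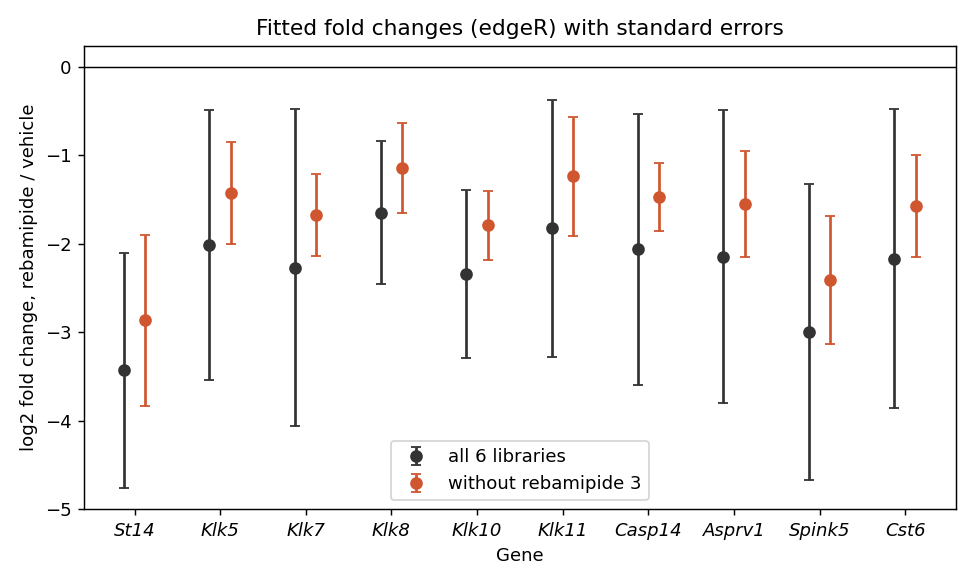
Points are log2 fold changes of rebamipide over vehicle fitted by edgeR for each gene, with bars of 1 standard error, from all 6 libraries (dark) and without rebamipide 3 (orange). All points lie below 0, and the bars are shorter without rebamipide 3, where Klk10 has a log2 fold change of -1.79 with an SE of 0.39.

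Leaving out rebamipide 3 changed which genes passed. In edgeR, Klk10 alone was then lower, with a log2 fold change of -1.79 (SE 0.39) and an adjusted p-value of 0.0429, while 2.49% of all genes were called lower. The median of the 10 genes was -1.56 in that fit, and 8 of them had an unadjusted p-value under 0.05, beside 14.6% of all genes. DESeq2 called 7 of the 10 without that library (Klk7, Klk10, Spink5, St14, Casp14, Asprv1 and Cst6), beside 12.2% of all genes, and limma-voom called only Klk10, beside 1.75%. All 10 stayed below 0 in each of these fits. Without rebamipide 3 the edgeR log2 fold changes of the proteases were -2.87 for St14 (adjusted p = 0.114), -1.42 for Klk5 (0.161), -1.68 for Klk7 (0.0736), -1.14 for Klk8 (0.19), -1.24 for Klk11 (0.264), -1.47 for Casp14 (0.0641) and -1.55 for Asprv1 (0.145). Those of the inhibitors were -2.41 for Spink5 (adjusted p = 0.089) and -1.58 for Cst6 (0.132). Each was nearer to 0 than with all libraries, and the values in the paragraphs on single genes are those with all libraries.

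St14 encodes matriptase, the membrane-anchored serine protease that starts the cascade by activating prostasin and the pro-kallikreins. The gene lies at chr9:31000698-31043149 on the minus strand in the coordinates of the deposited table. Its normalized CPM was 267, 109 and 41.4 in vehicle 1, 2 and 3, and 30.0, 7.83 and 0.687 in rebamipide 1, 2 and 3. All rebamipide libraries were below all vehicle libraries, but the vehicle libraries differed among themselves by a larger ratio than for any other member. The log2 fold change was -3.43 (SE 1.33, edgeR adjusted p = 0.11), the lowest of the group. Vehicle 1 was the highest vehicle library for St14 and the lowest for the other 9 genes. The 7 inner root sheath and hair shaft markers also had vehicle 1 highest and vehicle 3 lowest, with sums of 23970, 13320 and 267 CPM in vehicle and 1078, 0.818 and 0.382 in rebamipide. Spint1, the gene of a Kunitz-type inhibitor of matriptase that was picked out after its values were seen, had this order too, at 156, 61.9 and 26.4 in vehicle and 19.96, 5.92 and 0.992 in rebamipide. In the inner root sheath and hair shaft markers the 3 vehicle libraries were thus not alike, and the hair cycle stage of each was not tested. Nor was the part of hair follicle RNA in the St14 values.

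The 5 kallikrein members are neighbours on chromosome 7. In the table's coordinates they run on the plus strand in the order Klk11 (43424028-43428687), Klk10 (43430459-43434834), Klk8 (43447001-43453250), Klk7 (43460718-43465783) and Klk5 (43491395-43500605), a span of 76.6 kb that also holds Klk9 and Klk6. Their promoter sequences are shown because the genes are neighbours that differed in rebamipide 3, where Klk5, Klk7 and Klk11 had no count but Klk8 and Klk10 did, with no order along the cluster. That of Asprv1, the member with the highest vehicle mean per length, is shown beside them. They are RefSeq sequences on GRCm38.p6, from 250 bases before to 50 bases after the transcription start, all on the plus strand, and those coordinates are not interchangeable with the table's. Capitals mark a CACCC box (CCACCC or its reverse complement GGGTGG).
Klk11, first promoter: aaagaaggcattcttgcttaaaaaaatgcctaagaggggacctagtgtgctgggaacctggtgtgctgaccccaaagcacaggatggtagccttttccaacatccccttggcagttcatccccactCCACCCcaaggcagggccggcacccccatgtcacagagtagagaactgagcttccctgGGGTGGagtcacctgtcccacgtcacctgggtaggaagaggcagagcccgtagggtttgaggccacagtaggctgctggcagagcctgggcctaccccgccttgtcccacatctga
Klk11, second promoter: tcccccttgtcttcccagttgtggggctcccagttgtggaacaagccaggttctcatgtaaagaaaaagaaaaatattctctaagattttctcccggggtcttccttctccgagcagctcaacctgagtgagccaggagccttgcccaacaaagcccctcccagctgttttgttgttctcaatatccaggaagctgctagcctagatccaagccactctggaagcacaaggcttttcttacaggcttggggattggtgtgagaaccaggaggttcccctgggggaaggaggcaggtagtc
Klk10: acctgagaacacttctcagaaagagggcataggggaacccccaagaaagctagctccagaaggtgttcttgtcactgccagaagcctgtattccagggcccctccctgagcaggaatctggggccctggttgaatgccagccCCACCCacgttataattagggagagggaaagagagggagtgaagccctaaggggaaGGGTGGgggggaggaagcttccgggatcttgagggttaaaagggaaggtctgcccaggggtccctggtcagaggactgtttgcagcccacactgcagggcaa
Klk8: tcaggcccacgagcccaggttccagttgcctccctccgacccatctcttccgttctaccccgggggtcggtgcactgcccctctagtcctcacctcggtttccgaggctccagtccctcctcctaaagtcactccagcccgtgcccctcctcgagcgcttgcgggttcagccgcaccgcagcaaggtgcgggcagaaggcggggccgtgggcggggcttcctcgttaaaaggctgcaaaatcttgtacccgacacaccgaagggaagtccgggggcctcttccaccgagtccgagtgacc
Klk7: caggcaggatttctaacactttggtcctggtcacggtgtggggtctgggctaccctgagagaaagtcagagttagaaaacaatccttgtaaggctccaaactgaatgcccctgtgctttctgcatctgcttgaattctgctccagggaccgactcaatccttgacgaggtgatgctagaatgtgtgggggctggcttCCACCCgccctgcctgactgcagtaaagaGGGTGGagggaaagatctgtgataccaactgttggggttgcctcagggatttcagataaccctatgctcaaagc
Klk5: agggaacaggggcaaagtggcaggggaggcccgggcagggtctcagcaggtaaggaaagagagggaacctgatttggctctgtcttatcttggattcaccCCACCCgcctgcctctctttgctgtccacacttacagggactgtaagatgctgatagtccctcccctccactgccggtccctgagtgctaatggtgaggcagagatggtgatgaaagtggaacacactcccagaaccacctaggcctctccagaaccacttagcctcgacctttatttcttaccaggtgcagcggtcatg
Asprv1: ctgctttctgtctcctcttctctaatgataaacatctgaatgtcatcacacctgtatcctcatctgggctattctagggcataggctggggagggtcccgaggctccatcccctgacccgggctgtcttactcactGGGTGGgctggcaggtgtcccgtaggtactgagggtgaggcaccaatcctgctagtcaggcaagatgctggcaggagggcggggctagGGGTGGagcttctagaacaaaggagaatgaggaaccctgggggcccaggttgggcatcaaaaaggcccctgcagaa

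The printed sequences were those of Klk11 at chr7:43774367-43774666 and chr7:43776079-43776378, Klk5 at chr7:43842019-43842318, Klk7 at chr7:43811044-43811343, Klk8 at chr7:43797327-43797626, Klk10 at chr7:43780804-43781103 and Asprv1 at chr6:86627924-86628223. RefSeq promoters were matched for 7 of the 10 genes, with 8 sequences in all because Klk11 had a pair. A CACCC box on either strand was present in 6 of the 8, beside 31.5% of all 32851 mouse promoters of the same length, and Klk8 and the second Klk11 promoter lacked it. An AACCNG match, the core letters of the Grainyhead-like motif, was in 7 of 8 (39.4% of all), and a CANNTG E box was in 7 of 8 (72.3%). A GGGCGG GC box was in 3 of 8 (35.7%), those of Asprv1, Klk8 and Klk7. Neither a TATAAA box (13.6% of all) nor the AP-1 letters TGANTCA (7.81%) were found in any of the 8. Each motif was searched on both strands on its own, so matches of different motifs may overlap, and a match is a run of letters and not a measured site.

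Klk5 encodes a trypsin-like kallikrein that activates Klk7 and itself. Its normalized CPM was 19.8, 53.0 and 68.0 in vehicle and 22.1, 12.7 and 0 in rebamipide. Rebamipide 1 lay just above vehicle 1, so the groups overlapped, and the log2 fold change was -2.02 (SE 1.53, edgeR adjusted p = 0.352). Klk7, whose chymotrypsin-like product cuts corneodesmosin, stood at 189, 400 and 431 in vehicle and at 124, 88.1 and 0 in rebamipide. Here the groups were apart, by a narrow margin between vehicle 1 and rebamipide 1, and the log2 fold change was -2.27 (SE 1.79, adjusted p = 0.371). Against the floor of 3 counts in rebamipide 3, Klk5 was at least 173-fold and Klk7 at least 1653-fold lower there than in the lowest vehicle library.

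Klk8 and Klk10 lie between Klk11 and Klk7 and were the kallikrein members that kept counts in rebamipide 3. Klk8, the gene of a trypsin-like protease, was at 12.3, 26.7 and 38.9 CPM in vehicle and at 12.5, 10.9 and 1.49 in rebamipide. Its log2 fold change of -1.65 (SE 0.81, adjusted p = 0.178) was the one nearest to 0 in the group, and rebamipide 1 was level with vehicle 1. Klk10 had the smallest ratio of highest to lowest vehicle library among the 10 genes, with 44.3, 66.0 and 69.4 in vehicle beside 22.1, 12.2 and 0.992 in rebamipide. The groups did not overlap, and the log2 fold change was -2.34 (SE 0.95, edgeR adjusted p = 0.122) with all libraries. DESeq2 gave an adjusted p-value of 0.023 for the same libraries, and the range over all alternatives was 0.000437 to 0.271. Klk11, the member with the lowest vehicle mean, was at 5.55, 15.6 and 27.7 in vehicle and 7.64, 6.12 and 0 in rebamipide, with overlapping groups and a log2 fold change of -1.83 (SE 1.45, adjusted p = 0.373).

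**Figure D3:**
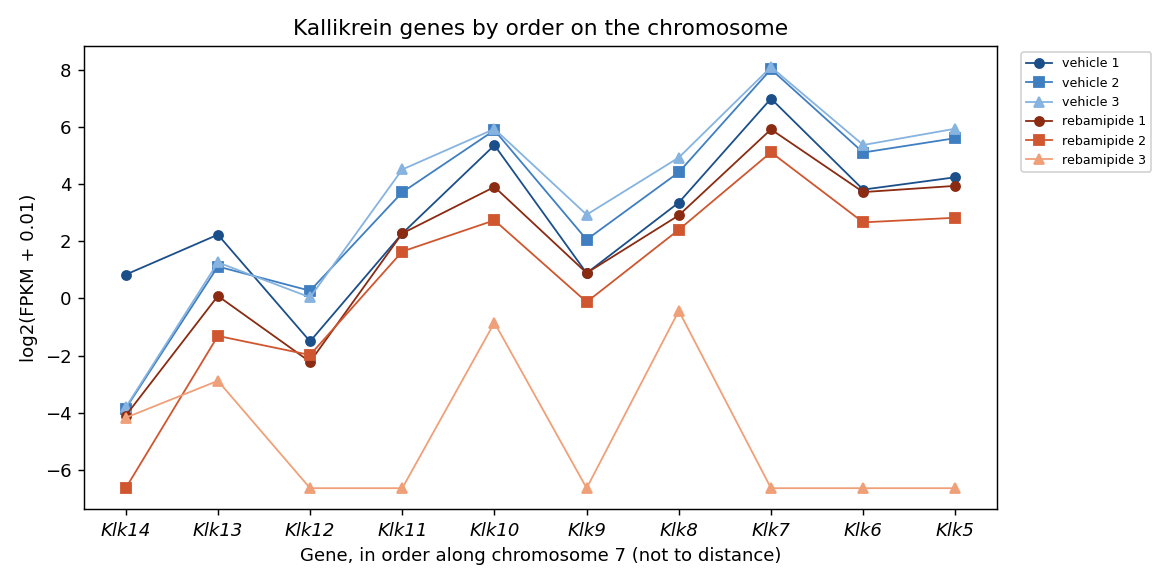
Each line joins the log2(FPKM + 0.01) values of 10 kallikrein genes in 1 library, in their order along chromosome 7 from Klk14 to Klk5 and not to distance. The lines of 5 libraries keep a like shape over Klk11 to Klk5 with Klk7 at the top, and in rebamipide 3 only Klk13, Klk10, Klk8 and, with 2 counts, Klk14 lie above the bottom.

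Other kallikrein genes of the cluster gave the background for these 5. Klk6 and Klk9, which lie inside the same span, had 829 to 2422 and 106 to 435 counts in vehicle and, like Klk12, none in rebamipide 3. Klk13 had 198 to 421 counts in vehicle and 79, 31 and 10 in rebamipide. Klk14 was near the floor outside vehicle 1, where it had 88 counts. The 16 kallikrein genes beyond Klk5, from Klk4 to Klk1, had at most 22 counts in any library.

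Casp14 encodes a caspase of cornifying keratinocytes that takes part in filaggrin breakdown, and lies at chr10:78547825-78554128 on the minus strand in the table. It was at 54.5, 96.9 and 82.5 CPM in vehicle and at 34.8, 21.1 and 0 in rebamipide. The groups did not overlap, and the log2 fold change was -2.06 (SE 1.53, adjusted p = 0.343). Asprv1 (chr6:86605146-86606692, plus strand) encodes SASPase, the retroviral-like aspartic protease that cuts the linkers of profilaggrin. Its values were 251, 839 and 824 CPM in vehicle and 251, 182 and 0.305 in rebamipide. Vehicle 1 and rebamipide 1 were level for Asprv1, and the log2 fold change was -2.14 (SE 1.65, adjusted p = 0.36).

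Both inhibitor genes had lower fitted levels after rebamipide, as the proteases did, and neither passed the test. Spink5 (chr18:44096302-44155568, plus strand) encodes LEKTI, which inhibits Klk5 and Klk7, and stood at 43.6, 181 and 227 CPM in vehicle and 23.9, 32.6 and 0 in rebamipide. It was the only member in which rebamipide 2 was above rebamipide 1. The groups were apart, and the log2 fold change of -3.00 (SE 1.67, adjusted p = 0.225) was second to that of St14. Cst6 (chr19:5394733-5399602, minus strand) encodes cystatin M/E, an inhibitor of legumain and cathepsin L in the hair follicle and the upper epidermis. It was at 146, 420 and 460 in vehicle and 141, 86.9 and 0.0763 in rebamipide, with a log2 fold change of -2.17 (SE 1.69, adjusted p = 0.365). Its groups were separated only by the small step from vehicle 1 to rebamipide 1.

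The inhibitor was set against its targets within each library, which needs no scaling between libraries. Spink5 FPKM divided by the summed Klk5 and Klk7 FPKM was 0.0794, 0.151 and 0.171 in vehicle and 0.0611 and 0.122 in rebamipide 1 and 2, and rebamipide 3 gave no ratio. Rebamipide 1 was below all vehicle libraries and rebamipide 2 was among them. The log2 ratio was lower by -0.56 in rebamipide (two-sided exact permutation test, p = 0.4, n = 3 and 2), and 0.1 is the smallest p-value that this design allows. The difference was -0.06 without rebamipide 1 and -1.05 without rebamipide 2, so its size rests on single libraries.

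Levels per gene length (FPKM) placed Asprv1 first in vehicle, at 507 ± 260 (SD, n = 3), followed by Klk7 at 221 ± 81.2 and Cst6 at 103 ± 49.8. Klk10 (53.9 ± 11.01), Klk5 (43.1 ± 21.9), Casp14 (40.2 ± 10.5) and Spink5 (38.6 ± 23.9) followed, with overlapping vehicle libraries. St14 (22.9 ± 19.6), Klk8 (20.7 ± 10.2) and Klk11 (13.6 ± 9.02) had the lowest means, and their order was not resolved either. St14 had no fixed place, since it was at 44.6, 17.5 and 6.56 FPKM in vehicle 1, 2 and 3, above Klk10 in vehicle 1 (41.2) and below Klk11 in vehicle 3 (22.8). As a share of the summed FPKM of the 10 genes, Asprv1 made up 48.2 to 51.0% in vehicle 2 and 3 and in rebamipide 1 and 2, and 38.3% in vehicle 1. Klk7 made up 19.7 to 23.6% in all 5 libraries other than rebamipide 3. Across vehicle 2 and 3 and rebamipide 1 and 2, no gene's share moved by more than 2.79 percentage points. The limit of 2.79 does not hold with vehicle 1, where St14 held 8.26%, Klk10 7.62% and Asprv1 38.3%. For genes of low share this limit allows large relative steps, also within a group. Spink5 held 3.56% and 4.29% in vehicle 2 and 3 and 1.51% and 2.94% in rebamipide 1 and 2. St14 held 1.34% and 0.491% in vehicle 2 and 3 and 1.19% and 0.443% in rebamipide 1 and 2. Between these libraries the summed FPKM went from 1313 and 1336 to 308 and 173. Rebamipide 3 had a sum of only 1.51 FPKM, in which Klk8 held 48.4%, Klk10 36.2% and Asprv1 9.89%, and these shares rest on 93 counts.

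**Figure D4:**
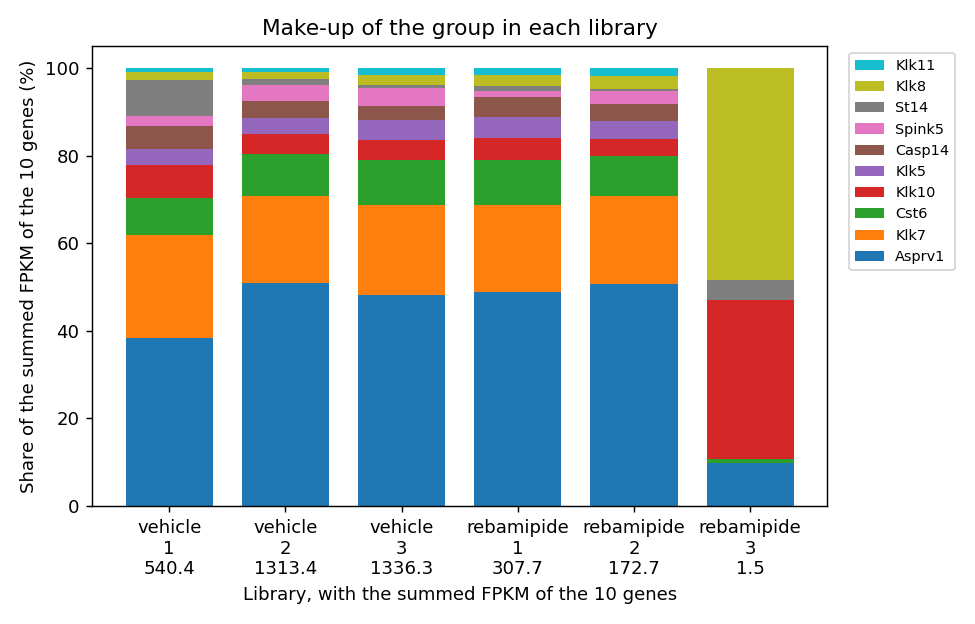
Stacked bars give each gene's share (%) of the summed FPKM of the 10 genes in each library, with the sum under the bar. Asprv1 and Klk7 take most of the bar in 5 libraries, and Klk8 (48.4%) and Klk10 (36.2%) take most of it in rebamipide 3, whose sum is 1.51 FPKM.

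Keratins showed the same large steps between libraries, with vehicle 1 lowest in vehicle for 4 of 4 and rebamipide 3 near 0. Krt1 and Krt10, the keratin pair of the suprabasal layers, had 139, 1131 and 1396 CPM and 301, 1840 and 2370 CPM in vehicle, and 404, 263 and 0.0763 and 566, 354 and 1.95 in rebamipide. Krt5 and Krt14, the basal pair, had 1010, 1574 and 1211 and 523, 1307 and 1272 in vehicle, and 435, 209 and 0.153 and 361, 238 and 0 in rebamipide. None of the 4 passed the test (adjusted p = 0.316 to 0.465). Each member was therefore also counted per 1000 counts of Krt1 plus Krt10. On this scale vehicle 1, the library with the fewest Krt1 and Krt10 counts of its group, was the highest vehicle library for all 10 genes, with 430 Klk7 counts beside 135 and 114 in vehicle 2 and 3 and 127 and 143 in rebamipide 1 and 2. Rebamipide 1 and 2 lay inside the range of the vehicle libraries for 9 of the 10 genes, a range whose upper end was set by vehicle 1. Both lay above vehicle 2 and 3 for 4 of these genes (Klk5, Klk8, Klk11 and Casp14). Spink5 lay below all vehicle libraries, with 98.9, 61.0 and 60.3 in vehicle and 24.7 and 52.8 in rebamipide 1 and 2, a log2 difference of -0.98 (two-sided exact permutation test, p = 0.1, n = 3 and 2, the smallest p-value possible). The Spink5 difference was -0.43 without rebamipide 1 and -1.53 without rebamipide 2, so its size rests on single libraries. Per 1000 counts of Krt5 plus Krt14 the placing was different: the Spink5 difference was -0.22, and both rebamipide libraries were inside the vehicle range at 30.1 and 72.9 beside 28.4, 62.9 and 91.4 in vehicle. On that scale only 3 genes (Klk10, Spink5 and St14) had both rebamipide libraries inside the vehicle range, and 2 (Klk5 and Casp14) had both above it. Casp14 stood at 35.5, 33.6 and 33.2 in vehicle and 43.8 and 47.2 in rebamipide 1 and 2. After Benjamini-Hochberg adjustment over the 10 genes all p-values of the exact permutation tests per Krt1 and Krt10 count were 1. Rebamipide 3, with 53 Krt1 and Krt10 counts in all, gave a ratio for 4 genes only, with 736 for Klk8, 491 for Klk10, 340 for St14 and 151 for Asprv1.

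**Figure D5:**
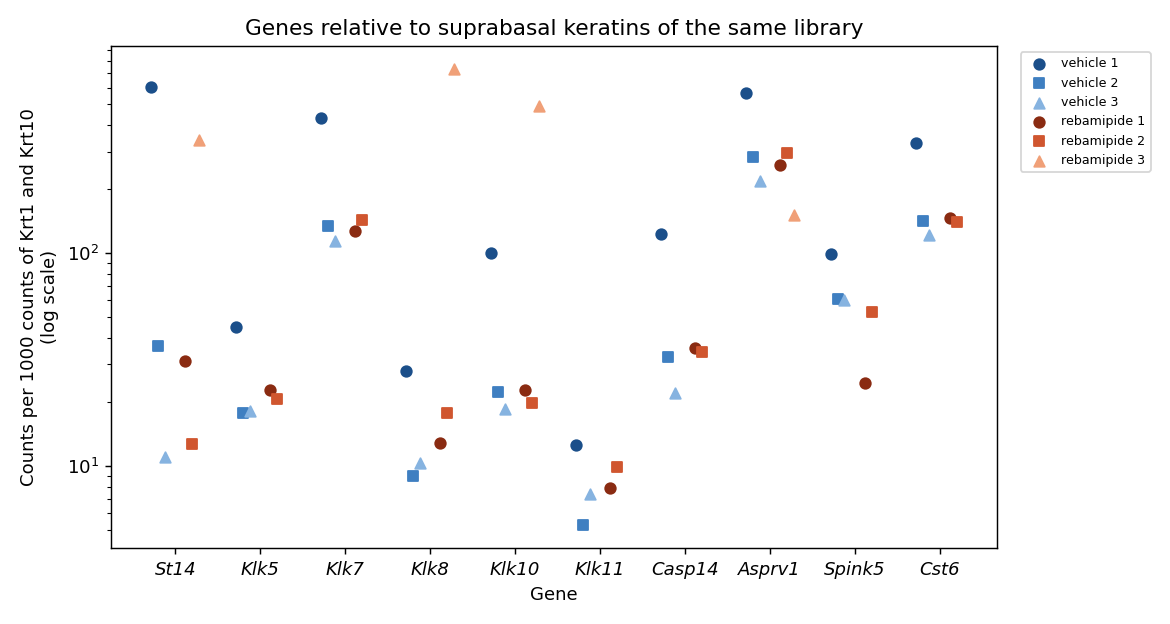
Points are counts of each gene per 1000 counts of Krt1 plus Krt10 in the same library (log scale), vehicle in blues and rebamipide in reds. Rebamipide 1 and 2 sit inside the vehicle range for all genes other than Spink5, vehicle 1 is the highest vehicle point throughout, and the 4 rebamipide 3 points rest on 8 to 39 counts of the gene.

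The rest of the network was read from 59 listed genes of 3 roles, of which 47 were tested. Of 21 other proteases tested, 3 were lower and 3 higher, with a median log2 fold change of -1.67, beside the 6.51% and 14.1% of all genes called lower and higher. Tmprss11e, the gene of a transmembrane serine protease, was at 7.91, 7.90 and 3.40 CPM in vehicle and 0.263, 0.351 and 0 in rebamipide, and fell by 4.94 on the log2 scale (SE 1.03, adjusted p = 0.025). Blmh, whose product bleomycin hydrolase completes filaggrin breakdown, fell from 276, 259 and 244 to 121, 76.5 and 48.2, a log2 fold change of -1.67 (SE 0.35, adjusted p = 0.0263). The third lower call was Capn12, a calpain gene named after its values were seen (log2 fold change -3.85, SE 1.01, adjusted p = 0.0445), whose vehicle 3 value of 2.33 CPM was below that of rebamipide 1 (2.34). The higher calls were the lysosomal protease genes Ctsb (log2 fold change 1.03, SE 0.26, adjusted p = 0.0398) and Ctsd (0.87, SE 0.23, adjusted p = 0.0431) and the proprotein convertase gene Furin (0.71, SE 0.18, adjusted p = 0.0412). On the TMM scale each of these 3 was above all vehicle libraries in all rebamipide libraries. Scaled by total counts alone, all 3 calls were lost, with log2 fold changes of 0.40 for Ctsb, 0.25 for Ctsd and 0.08 for Furin, whose vehicle 1 level of 13.6 FPKM was above all rebamipide libraries (12.2 to 13.0). The higher calls also numbered 1 without vehicle 1 or vehicle 3 and 0 without vehicle 2, rebamipide 2 or rebamipide 3. Ctsb, Ctsd and Capn12 share positions with another gene of the table, and reads of the pair may not be told apart. Of the targets of Cst6, the cathepsin L gene Ctsl was at 456 ± 106 CPM in vehicle and 276 ± 59.1 in rebamipide (SD, n = 3 each). Its log2 fold change of -0.72 did not pass (adjusted p = 0.111). With total counts alone it was -1.31 and passed (edgeR adjusted p = 0.0321), where 25.2% of all genes were called lower. The legumain gene Lgmn was at 97.7 ± 14.1 and 96.8 ± 36.0, a log2 fold change of -0.01 (adjusted p = 0.976). For Lgmn it was -0.58 with total counts alone and 0.20 without rebamipide 3, and neither passed.

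None of 17 other inhibitors tested was called in either direction (edgeR), and their median was -2.12. At an unadjusted p-value under 0.05 and by DESeq2 alike 4 were lower and 1 higher, beside 18.8% and 17.0% of all genes lower. DESeq2 called 18.3% of all genes higher. Serpinb5, the gene of maspin, had 431, 356 and 301 CPM in vehicle and 79.8, 51.1 and 0 in rebamipide (log2 fold change -3.06, adjusted p = 0.237). The cystatin genes Cst3 and Cstb differed in sign, at 1.01 (adjusted p = 0.0706) and -0.58 (adjusted p = 0.173). With total counts alone they were 0.40 (edgeR adjusted p = 0.32) and -1.18 (0.0344). Cstb thus passed in a setting that called 25.2% of all genes lower. On the TMM scale 16 of the 17 inhibitors were fitted lower, Cst3 being the exception. Among the 9 substrates, all fitted lower with a median of -2.80, only Cdsn passed. Cdsn encodes corneodesmosin, the target of Klk5 and Klk7, and went from 241, 356 and 288 CPM to 109, 75.5 and 35.0 (log2 fold change -2.01, SE 0.44, adjusted p = 0.0281). Dsg1a, the gene of a desmosomal cadherin (desmoglein), had a log2 fold change of -3.58 (adjusted p = 0.181) and Flg2, the gene of filaggrin 2, one of -2.80 (adjusted p = 0.302), and both were at 0 in rebamipide 3. The lower calls over the 3 lists numbered 4 with all libraries, 0 without vehicle 1, without vehicle 2 or without rebamipide 2, 9 without rebamipide 1 and 11 without rebamipide 3. In the fit without rebamipide 3, Tmprss11e (log2 fold change -4.37, adjusted p = 0.0244) and Cdsn (-1.67, 0.0396) were still lower, Dsg1a (-2.98, 0.0206) and Serpinb5 (-2.46, 0.0246) now passed, and Blmh (-1.39, 0.0506) and Capn12 (-3.75, 0.104) did not.

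Patterns over the 6 libraries were compared as a description, with no test, since all 6 share the same large steps between libraries. Each member's log2 CPM had a Pearson correlation of 0.968 to 0.997 with the mean of the standardized members, other than St14 at 0.883. That mean includes the member itself, which raises these values. Among 13378 other genes with a mean of at least 50 counts, those nearest to the members' mean were Coch (0.9991), Abca12, Gsdma3, Arhgap40, AAdacl4fm3, Atp6v0a4, Sdr16c5 and Cyp2g1 (0.9986). Of these, Abca12 is the gene of the lipid transporter that loads lamellar bodies, and it had 49.4, 146 and 174 CPM in vehicle and 27.0, 21.6 and 0 in rebamipide. By the deposited annotation, 3 of the 4 genes assigned to the epidermal lamellar body were members (Klk5, Klk7 and Spink5), a description of genes that were chosen by name.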

How the data were processed

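RNA-seq of dorsal skin from 3 vehicle and 3 rebamipide mice was analysed. The counts deposited by the authors are whole reads per gene without normalization, and their deposited FPKM were found to be those counts over gene length and library total. The submitters' processing notes name fastp 0.22.0, HISAT2 2.1.0, HTSeq 0.9.1 and GRCm39, and strandedness is not given in the sources used here. Of the gene entries, 51 had no symbol, and they stayed in under their IDs. Libraries of a group differed beyond counting error, with chi-square values per degree of freedom of 79.1 to 713.6.

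Counts were tested in R 4.3.3 with edgeR 4.0.16 (TMM, filterByExpr, quasi-likelihood test, Benjamini-Hochberg adjustment over 14875 genes), called at an adjusted p-value under 0.05. Normalized CPM are counts scaled to the TMM-adjusted library size. DESeq2 1.42.0, limma 3.58.1, other scalings, filters and pseudocounts and the omission of each library were alternatives. The count tests were also run on simulated counts. Those had the same dispersion for all genes and no shift in composition, so they do not cover libraries as uneven as these. DESeq2 and limma-voom without rebamipide 3, DESeq2 at the study's thresholds, and the Krt5 and Krt14 ratio without rebamipide 3, were added after seeing the data. With no counts in a library, fitted fold changes depend on the prior count, and a floor of 3 counts was used for bounds, which cover counting error only. Ratios were tested by exact permutation.

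The members and lists were chosen with earlier results of these data known. Named genes are the 10 members, of each list up to 5 called genes (smallest p-values first) and the 3 highest in CPM, Krt5, Krt14, Krt1 and Krt10, and the 8 most correlated genes. Capn12, Spint1, Lgmn, the other kallikreins and the single markers of cell types (Itga6, Ucp1, Elovl6, Calml3, Mogat2 and Pm20d1) fall outside this rule. They were named after their values were seen.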

Additional observations from a re-analysis of the deposited data

How the results depend on the processing

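All 173 recomputed fold changes of the 10 members, refits of the same 6 libraries, were below 0, and 19 of them passed the test. Their size depended on the setting. The median log2 fold change of the members was -2.16 in edgeR, -4.46 in limma-voom and -1.46 in limma-voom without rebamipide 3. Over all genes these medians were -0.17, -0.18 and -0.13. Members called lower numbered 0 with all libraries in edgeR, 2 with DESeq2, 5 with limma on log2(FPKM + 1), 2 on log2(FPKM + 0.1), and, at the study's thresholds, 2 in edgeR and 3 in DESeq2. Both FPKM settings called more of all genes lower too, 32.3% and 32.1% against 6.51%. Leaving out each library gave 0 to 1, and without rebamipide 3 DESeq2 gave 7 and limma-voom 1. No member was called higher under any of these settings. The filter of 10 counts in every sample left only Klk8, Klk10 and St14 to test. Genes of the 3 role lists called lower, 4 in edgeR, numbered 12 with total counts alone, 8 with the filter of 10 counts, 15 with DESeq2, 7 with limma-voom, 26 and 19 with limma on log2(FPKM + 1) and log2(FPKM + 0.1), 13 in edgeR and 15 in DESeq2 at the study's thresholds, 0 to 11 with each library left out, and 24 with DESeq2 and 12 with limma-voom without rebamipide 3. Of all genes, 25.2% were called lower with total counts alone, 11.9% with the filter of 10 counts, 17.0% with DESeq2, 6.94% with limma-voom and 0 to 12.8% with each library left out. Role list genes called higher, 3 in edgeR, numbered 0 with total counts alone, with both FPKM settings, and with limma-voom without rebamipide 3. With each library left out they numbered 0 to 3. Of all genes, 8.46% were called higher with total counts alone and 9.42% and 9.35% on log2(FPKM + 1) and log2(FPKM + 0.1). The share was 5.94% with limma-voom without rebamipide 3 and 0 to 18.3% with each library left out. Without vehicle 2 and without rebamipide 2, edgeR called 0 and 1 of all genes, at unadjusted p-values under 0.05 for none of the members. The cause of these changes was not tested.

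Deviations from the group mean had correlations of 0.011, -0.041 and 0.022 between samples with the same replicate number. Between other samples of the 2 groups they ran from -0.315 to 0.39. With 3 libraries per group this cannot settle whether the numbers pair the samples. With the replicate block 1 member was called lower (St14, edgeR adjusted p = 0.0338, with 0.00429 to 0.279 over its alternatives), beside 5.75% of all genes, and 0 role list genes were called higher. The Spink5 ratio was -0.56 on the log2 scale, -1.05 to -0.06 with each library left out, -0.35 with the replicate block and -0.55 with Klk14 in the denominator.

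Of 78 recomputed keratin ratios 62 kept their direction and 16 reversed. Per Krt1 and Krt10 count with all libraries, log2 differences were -0.17 for Klk5, -0.48 for Klk7 and -0.29 for St14. Those of Casp14, Asprv1 and Cst6 were -0.35, -0.54 and -0.32, and those of Klk8, Klk10 and Klk11 were 2.00, 0.81 and 0.17. The log2 differences without vehicle 1 turned to 0.27 for Klk5, 0.12 for Klk7, 1.35 for St14, 0.39 for Casp14 and 0.13 for Cst6. Per Krt5 and Krt14 count they turned to 0.59 for Klk5, 0.28 for Klk7, 1.59 for St14, 0.41 for Casp14, 1.34 for Asprv1 and 0.44 for Cst6. The values of St14 and Asprv1 include rebamipide 3, where Krt5 and Krt14 had 4 counts together, and without it they were -0.90 and 0.51. Klk10 turned to -0.70 without rebamipide 3 and Klk11 to -0.12 without vehicle 2. With each library left out, the lowest and highest values were -0.40 and 0.27 for Klk5, -0.83 and 0.12 for Klk7, -0.70 and 1.62 for Klk10, -0.12 and 0.51 for Klk11, -1.65 and 1.35 for St14, -0.86 and 0.39 for Casp14, and -0.60 and 0.13 for Cst6. St14 turned to 0.07 without rebamipide 1 and 0.72 without rebamipide 2. With each library left out, Klk8, Asprv1 and Spink5 kept their signs, at 0.13 to 3.05, -0.83 to -0.14 and -1.53 to -0.43. In rebamipide 3, Klk5, Klk7, Klk11, Spink5, Casp14 and Cst6 were at or under 3 counts (0.115 CPM), so their levels there are known only as upper limits.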
